A study of Mus musculus with 196 samples.

Results

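Of 97 tail skin arrays, 48 were chosen by the level of 4 mitotic genes: the 24 tails with the highest mean log2 value of Aurkb, Bub1, Kif11 and Birc5 (the upper group) and the 24 with the lowest (the lower group), which left 49 tails in between. The mean of the 4 genes ran from 7.67 to 8.38 in the upper group (median 7.78) and from 6.83 to 7.37 in the lower group (median 7.30). The ranking has no gap at its limits: the last tail inside the upper group read 7.67 and the next one 7.66, and the last tail outside the lower group read 7.38 and the next one, inside it, 7.37. The study profiled 196 arrays of tail and dorsal skin from 100 untreated mice, 8 weeks old, on Affymetrix arrays, with values on the log2 scale. Every mouse was a backcross animal, from a Mus spretus by FVB/N hybrid mother and an FVB/N father, so each tail has a genotype of its own. The upper group held 13 females and 11 males, all in the labelled batch 4, and the lower group 13 females and 11 males, of which 22 tails were in batch 4 and 2 in batch 3. Each tail came from a different mouse, and the labels number the mice from 1000 to 1115.

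The 4 genes act when a cell divides. Aurkb encodes the kinase of the chromosomal passenger complex and Birc5 (survivin) is a partner of that kinase, Bub1 encodes a spindle checkpoint kinase, and Kif11 encodes the motor that pushes the spindle poles apart. Their transcripts accumulate late in the cell cycle and are low in resting cells, so in skin they are known to come mostly from the basal epidermis and, where hair is growing, from the matrix at the base of the follicle. In whole skin, fewer cells of a type and less RNA per cell cannot be told apart.

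The contrast between the groups was selected on the values of these arrays, so it is a description and carries no test. A gene is counted as higher or lower in the upper group where the means of the groups differed by at least 0.5 on the log2 scale (1.41-fold), and the 4 ranking genes stay out of the counts. Tests are given only for what the ranking did not use: labels of the mice and dorsal skin of the same mice.

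The tails that stand apart were unevenly spread over the groups. A tail was taken to stand apart where its median correlation with the other tails lay below 0.982, that is 1.5 interquartile ranges under the first quartile. There were 11 such tails: 8 in the lower group, 1 in the upper and 2 in between. Of the 8 in the lower group, 6 were from females. Their 4-gene mean was 7.06 ± 0.16 (SD, n = 8), against 7.32 ± 0.06 (SD, n = 16) in the other lower tails. In these 8 tails the 990 olfactory receptor genes, a family known from the sensory cells of the nose, averaged 4.32 ± 0.32 (SD, n = 8), against 3.52 ± 0.08 (SD, n = 16) in the other lower tails and 3.51 ± 0.06 (SD, n = 24) in the upper group. The median over all probe sets of an array was also low in these 8 tails, at 5.845 to 5.908, and 15 of the other 16 lower tails lay above 5.908, as did 21 of the 24 upper tails. The 11 tails that stand apart came from mice numbered 1056 to 1092, and 9 of the 11 had odd numbers. What made these arrays differ was not tested. Values without the tails that stand apart (23 upper and 16 lower tails) are marked "without them". They are given for each list of cell cycle or hair shaft genes, but not for every gene named. Of the 55 named genes past the limit of 0.5 with all tails, 24 fell under it without them, among them Mki67 (0.46), Ccna2 (0.46) and Ncaph (0.44).

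Mouse numbers differed between the groups. They ran from 1002 to 1102 (median 1039.5) in the upper group and from 1007 to 1105 (median 1071) in the lower, and 7 of 24 upper against 17 of 24 lower tails came from mice numbered above 1050, the median of all tails. The upper minus the lower mean number was -21.5 (permutation test with 100000 resamples, two-sided, p = 0.00872, adjusted p = 0.0349 over 4 label tests). Without the tails that stand apart it was -14.99 (permutation p = 0.116, adjusted p = 0.324). This comparison was chosen after the numbers had been seen, and the labels do not say what the order of the numbers stands for. Among mice numbered up to 1050 (17 upper and 7 lower tails) the 4-gene mean differed by 0.53 and 74 mitotic genes by a median of 0.43, and among those above 1050 (7 and 17 tails) by 0.68 and 0.60. The ranking sets these sizes, so they are a description.

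**Figure D1:**
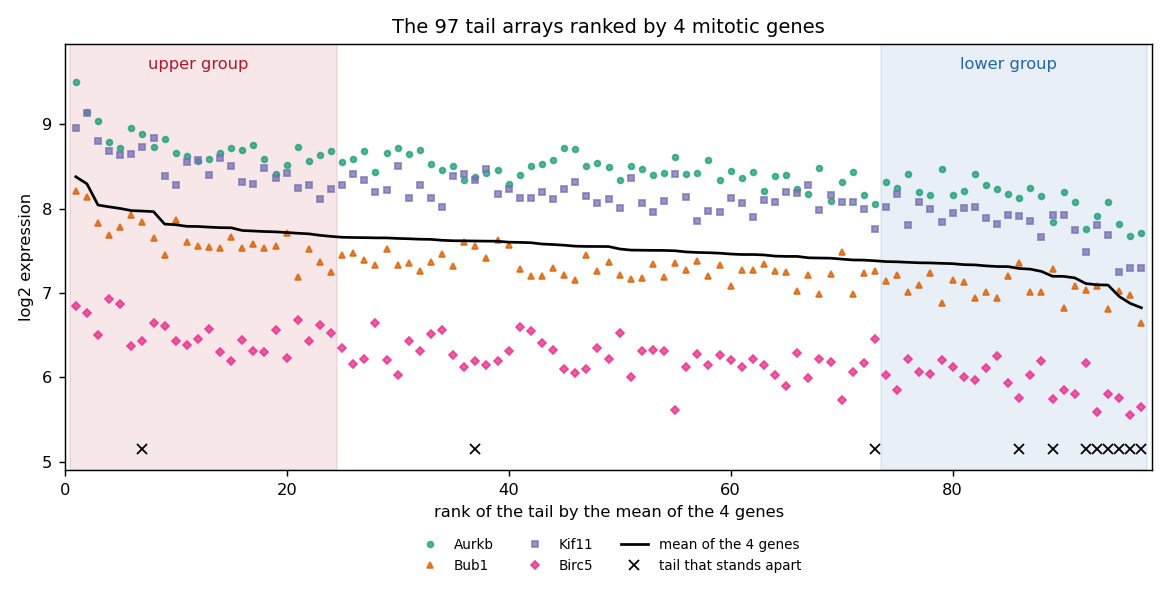
Log2 expression of the 4 ranking genes (symbols) and their mean (line) in each of the 97 tails, in order of the mean; crosses at the foot mark the tails that stand apart. The lower group (blue) holds 8 of the 11 crosses, and the mean falls steadily with no gap at either limit.

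Other mitotic genes went along with the 4, and a smaller number of hair follicle and keratinocyte stress genes had the largest differences. Of 18816 genes, 180 were higher in the upper group (0.957%) and 74 were lower (0.393%). At a limit of 1 on the log2 scale (2-fold), 9 genes were higher and 1 was lower. Of the 148 cell cycle genes listed and measured, 48 were higher and none was lower. Without the tails that stand apart, the counts were 98 higher and 8 lower, and 87 and 4 of these had also been counted over all tails. The median difference over all genes was 0.02 with all tails and -0.02 without them.

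**Figure D2:**
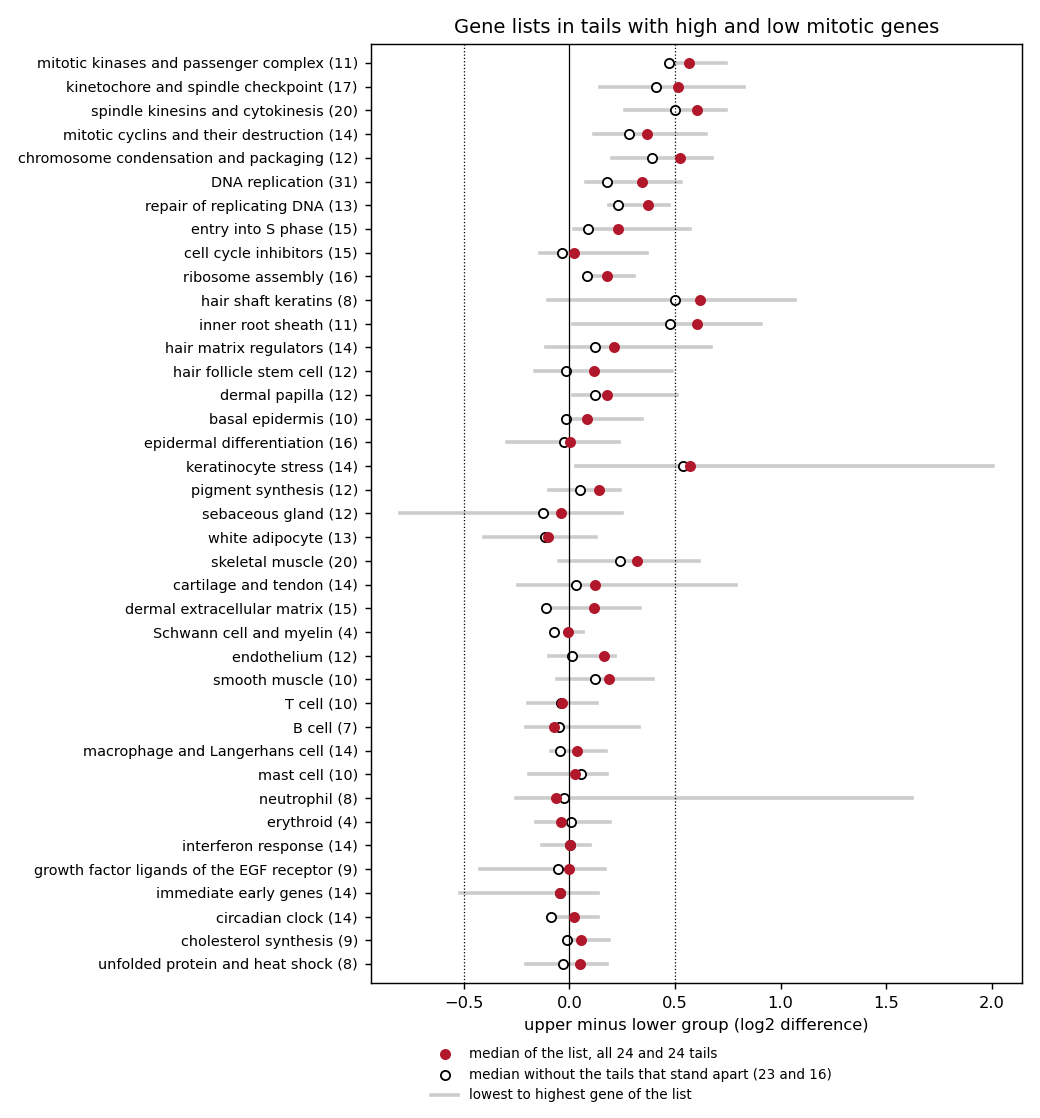
Difference between the upper and the lower group (log2, horizontal axis) for 39 gene lists, with the number of genes counted in brackets. Red points are list medians over all tails, open points the medians without the tails that stand apart, and grey bars run from the lowest to the highest gene of the list; the hair shaft, inner root sheath and keratinocyte stress lists and 4 of the 5 mitotic lists have red medians above 0.5.

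The ranking genes themselves give the size of the contrast. Aurkb ran from 8.41 to 9.50 (median 8.70) in the upper group and from 7.68 to 8.47 (median 8.17) in the lower. Kif11 ran from 8.11 to 9.13 (median 8.50) against 7.25 to 8.17 (median 7.87). Bub1 ran from 7.19 to 8.21 (median 7.59) against 6.65 to 7.36 (median 7.03), and Birc5 from 6.199 to 6.93 (median 6.48) against 5.56 to 6.25 (median 5.98). The groups overlapped for each of the 4 genes: 22 or 23 of the 24 upper tails read above every lower tail. The mean differences were 0.63, 0.71, 0.60 and 0.57 in the same order, and 0.50, 0.59, 0.58 and 0.48 without the tails that stand apart.

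Mitotic kinases and their partners were higher almost throughout. Of 11 such genes other than the ranking genes, 10 were higher (median difference 0.57, and 0.47 without the tails that stand apart, when 3 were higher). Plk1, a kinase needed for spindle poles and mitotic exit, averaged 7.76 ± 0.27 (SD, n = 24) in the upper and 7.02 ± 0.32 (SD, n = 24) in the lower group. Nek2, a kinase of the centrosome, averaged 7.06 ± 0.30 against 6.36 ± 0.36, and Mastl, which keeps mitotic phosphatase activity low, 7.32 ± 0.19 against 6.65 ± 0.32 (SD, n = 24 each). Cdk1, the kinase that drives entry into mitosis, ran from 8.81 to 9.92 (median 9.05) in the upper group and from 7.92 to 8.84 (median 8.50) in the lower. Of the upper tails, 22 read above every lower tail for Cdk1. Pbk was the member short of the limit, at 0.49.

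Kinetochore genes split into a larger group that differed and a few that hardly did. Of 17 genes of the kinetochore and the spindle checkpoint, 11 were higher (median 0.52, and 0.41 without the tails that stand apart, when 4 were higher). Cenpe, a kinesin that carries chromosomes to the spindle equator, had the largest difference of any cell cycle gene listed. It ran from 7.10 to 8.16 (median 7.70) in the upper group and from 6.10 to 7.21 (median 6.97) in the lower, a mean difference of 0.83, and 0.67 without them. Bub1b, a checkpoint protein, differed by 0.65, and Sgo1, which protects the cohesion of sister centromeres, by 0.64. Ska2 (0.15) and Spc24 (0.21), both subunits of complexes that hold microtubules, were at the low end of the list.

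Spindle motors and genes of cytokinesis had the highest median of the cell cycle lists. Of 20 genes, 15 were higher (median 0.60, and 0.50 without the tails that stand apart, when 9 were higher). Kif18b, a kinesin that shortens astral microtubules, ran from 7.67 to 8.58 (median 7.88) in the upper group and from 6.35 to 7.53 (median 7.32) in the lower, so the groups did not overlap. Hmmr, a spindle protein, averaged 6.48 ± 0.30 against 5.74 ± 0.33, and Racgap1, a subunit of the centralspindlin complex that places the cleavage furrow, 8.07 ± 0.25 against 7.37 ± 0.38 (SD, n = 24 each). Kif23 (0.26) and Kif18a (0.30) differed least.

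Mitotic cyclins and their regulators differed less as a list. Of 14 genes 3 were higher, Cdc25c, Ccna2 and Ccnb2 (median 0.37, and 0.28 without the tails that stand apart, when 1 was higher). Ccna2, cyclin A2, ran from 8.99 to 9.93 (median 9.28) in the upper group and from 8.12 to 8.96 (median 8.76) in the lower. Ccna2 and Kif18b were the only genes among all 18816 whose groups did not overlap, with every upper tail above every lower tail. The phosphatase Cdc25c, which activates Cdk1, differed by 0.65, and Ccnb2, cyclin B2, by 0.59. Fzr1 (0.12), an activator of the complex that destroys mitotic cyclins, was the lowest of the list.

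Among 12 genes that fold or package chromosomes 6 were higher (median 0.52, and 0.39 without the tails that stand apart, when 1 was higher). Mki67, whose protein coats mitotic chromosomes and marks cycling cells, ran from 9.37 to 10.18 (median 9.68) in the upper group and from 8.32 to 9.48 (median 9.12) in the lower. For Mki67, 19 of the 24 upper tails read above every lower tail. The condensin subunit Ncaph differed by 0.67, the histone H2ax by 0.63 and the topoisomerase Top2a by 0.57.

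Genes of DNA synthesis had smaller differences than those of mitosis. The tails were ranked by mitotic genes, so this order can be set in part by the ranking and is a description. Over the 5 mitotic lists, 45 of 74 genes were higher and all 74 had a difference above 0, with a median of 0.55. Over replication and its repair, 2 of 44 genes were higher and all 44 had a difference above 0, with a median of 0.35. Without the tails that stand apart 18 of the 74 and none of the 44 were higher, with medians of 0.43 and 0.21. Mcm6, a subunit of the replicative helicase, ran from 7.76 to 9.05 (median 8.35) in the upper group and from 6.74 to 8.42 (median 7.90) in the lower. The Mcm6 difference of 0.53 was 0.26 without the tails that stand apart, the lowest of which read 6.74. Rrm2, a subunit of the enzyme that makes deoxynucleotides, differed by 0.52 (0.33 without them), and Fancd2, a repair protein at stalled forks, by 0.47 (0.32 without them).

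Earlier steps of the cell cycle differed still less, in an order that the ranking by mitotic genes can again set in part. Of 15 genes of entry into S phase 1 was higher, E2f8, a repressor that is itself made in S phase (0.57, and 0.35 without the tails that stand apart), and the list median was 0.23 (0.09 without them). Cell cycle inhibitors had a median of 0.02 (-0.03 without them). None of the 15 was higher or lower, and 8 had a difference above 0. Cdkn1a, the p21 inhibitor, averaged 11.20 ± 0.19 in the upper and 11.24 ± 0.15 in the lower group (SD, n = 24 each). Of the inhibitor list, Rbl1, a pocket protein, had the largest difference (0.37). None of 16 ribosome assembly genes was higher, but all 16 differences were above 0 (median 0.18, and 0.09 without them). At shares over all genes of 0.957% higher and 0.393% lower, finding none in lists this short shows little.

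**Figure D3:**
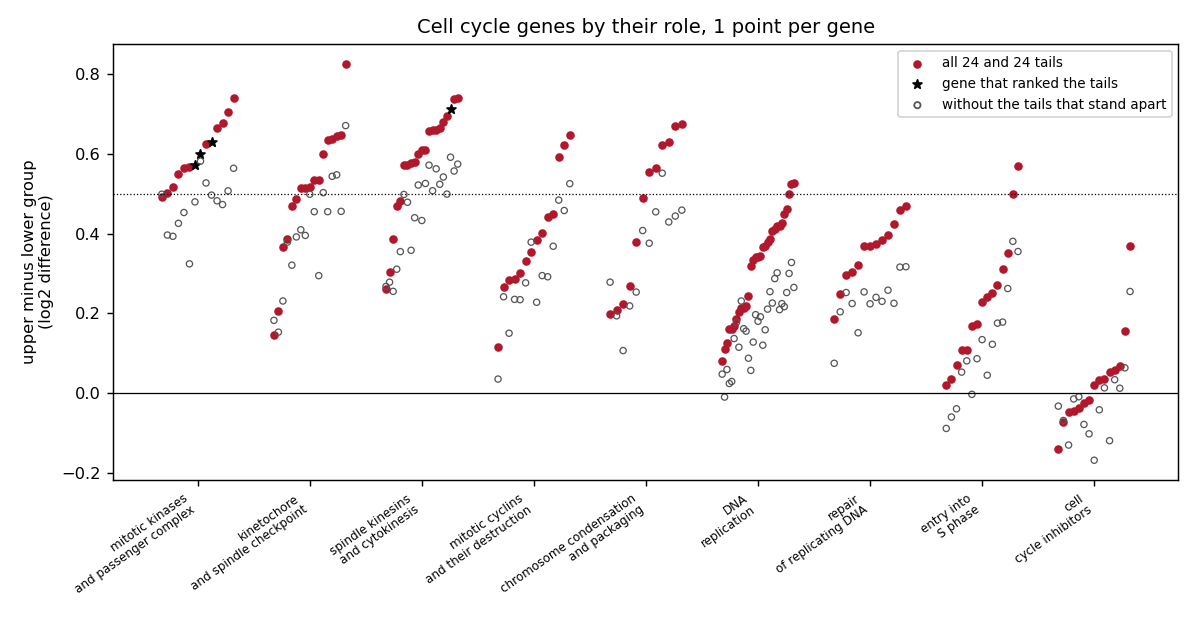
Difference between upper and lower group (log2, vertical axis) of each cell cycle gene, grouped by role; red points are over all tails, stars mark the ranking genes, open circles leave out the tails that stand apart, and the dotted line is the limit of 0.5. Of the red points, 45 of 74 in the 5 mitotic groups and 2 of 44 in replication and repair lie at or above the line.

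The promoters of these lists were read for the sequence elements known for late cell cycle control, because the members move together. In cell biology the late genes are known to carry a cell cycle genes homology region, bound by the MuvB complex, near a CCAAT box, bound by NF-Y. RefSeq windows on GRCm38.p6 from 250 bases before to 50 after each start were searched on both strands for TTTGAA or TTCGAA (the latter reads the same on both strands) and for CCAAT; a match of either kind can share at most 1 base with one of the other. A window was found for 131 of 152 cell cycle genes. Of all 32851 windows, 19.2% held TTTGAA or TTCGAA, 37.4% held CCAAT and 7.52% held both. Windows of spindle motors and cytokinesis genes held TTTGAA or TTCGAA in 22 of 24 cases (91.7%), those of chromosome packaging genes in 8 of 11, those of mitotic cyclins and their regulators in 8 of 12, those of kinetochore genes in 10 of 15 (66.7%) and those of mitotic kinases in 6 of 10. The share was 5 of 32 (15.6%) for DNA replication and 1 of 12 (8.33%) for repair, while CCAAT was found in 59.4% and 66.7% of those windows. Outside the cell cycle lists, TTTGAA or TTCGAA was found in 0 of 9 windows of keratinocyte stress genes, 2 of 10 of inner root sheath genes and 4 of 5 of hair shaft keratins. A match of letters is a description and not a site of binding. The stretch from 120 bases before to 30 after the start is shown for Bub1 and Kif11, which ranked the tails, for Cdk1 and Mki67, whose values across tails are used below, and for Birc5, which ranked the tails and has no match, with each match in capitals:
Bub1 (chr2:127831830-127831979, minus strand): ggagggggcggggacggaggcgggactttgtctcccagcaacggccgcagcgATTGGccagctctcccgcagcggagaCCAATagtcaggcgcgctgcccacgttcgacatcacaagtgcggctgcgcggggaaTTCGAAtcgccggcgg
Kif11 (chr19:37376262-37376411, plus strand): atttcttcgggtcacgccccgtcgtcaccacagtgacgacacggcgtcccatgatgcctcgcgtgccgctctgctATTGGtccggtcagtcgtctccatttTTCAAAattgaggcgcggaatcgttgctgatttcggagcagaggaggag
Cdk1 (chr10:69352883-69353032, minus strand): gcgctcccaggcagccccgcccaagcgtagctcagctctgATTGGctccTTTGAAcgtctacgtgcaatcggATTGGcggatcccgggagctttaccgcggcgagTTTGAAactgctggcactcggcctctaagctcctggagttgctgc
Mki67 (chr7:135716350-135716499, minus strand): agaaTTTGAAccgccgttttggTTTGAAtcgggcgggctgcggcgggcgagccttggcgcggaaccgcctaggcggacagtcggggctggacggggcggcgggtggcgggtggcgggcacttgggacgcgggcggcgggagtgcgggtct
Birc5 (chr11:117849117-117849266, plus strand): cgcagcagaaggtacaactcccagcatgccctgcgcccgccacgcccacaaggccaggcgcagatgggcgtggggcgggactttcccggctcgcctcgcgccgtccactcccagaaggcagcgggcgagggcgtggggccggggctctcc
In Bub1 the inverted CCAAT letters (ATTGG) begin at -68, CCAAT at -42 and TTCGAA at 15, counted from the start. In Kif11 ATTGG begins at -45 and TTCAAA, which is TTTGAA read on the other strand, at -19. Cdk1 holds TTTGAA at -71 and -15 and ATTGG at -80 and -48, and Mki67 holds TTTGAA at -116 and -98. In the searched window before the stretch shown, Cdk1 also has ATTGG at -208. Mki67 has CCAAT there at -188 and -141 and ATTGG at -166. No window was found for Aurkb, the remaining ranking gene. No match was found in Birc5 within the window, which says only that these letters are not there.

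Some hair shaft keratins and most inner root sheath genes listed were higher in the upper group, with wide spread in both groups. The hair shaft and its inner root sheath are built by cells that leave the dividing matrix. Of 8 hair shaft keratins 5 were higher (median 0.62, and 0.50 without the tails that stand apart, when 4 were higher). Krt86 ran from 8.29 to 11.53 (median 10.55) in the upper group and from 6.999 to 11.48 (median 9.06) in the lower, a difference of 1.07 (0.75 without them). The groups overlapped widely, and only 2 upper tails read above every lower tail. Krt36 was at -0.10 and Krt84 at -0.03. Of 11 inner root sheath genes 8 were higher (median 0.60, and 0.48 without them, when 5 were higher). Tchh, trichohyalin of the inner root sheath, ran from 8.12 to 11.28 (median 10.49) against 7.15 to 11.18 (median 9.45), a difference of 0.91 (0.50 without them). Krt73 differed by 0.76 and Krt28 by 0.73, both keratins of the inner root sheath.

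Keratin-associated proteins, which fill the shaft between its keratin filaments, were counted as a family after the values had been seen. Of 45 such genes 20 were higher and none was lower, with a median of 0.44 (0.37 without the tails that stand apart, when 15 were higher). Family members ranged from -0.44 for Krtap6-3 to 0.91 for Krtap1-4. Among 14 regulators of the hair matrix, Lef1, a transcription factor of Wnt signalling, was the one above the limit (7.12 ± 0.71 against 6.45 ± 0.59, SD, n = 24 each). None of 12 follicle stem cell genes was higher or lower, with Lgr5, a receptor of cycling stem cells, at 0.48. Differences were above 0 for 9 of the 12, and at shares over all genes of 0.957% and 0.393% such a count shows little. Of 12 dermal papilla genes 2 were higher, the matrix protein Vcan (0.51) and the phosphatase Alpl (0.50), and without the tails that stand apart these were 0.30 and 0.32.

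The largest differences of all were in genes that keratinocytes make under stress. Of 14 keratinocyte stress genes 8 were higher (median 0.57, and 0.54 without the tails that stand apart, when 7 were higher). Krt6b, a keratin of wounded and thickened epidermis, ran from 6.68 to 12.28 (median 8.78) in the upper group and from 5.74 to 9.76 (median 6.72) in the lower, a difference of 2.00 (1.82 without them). In 8 upper tails Krt6b was above every lower tail, and the remaining 16 overlapped the lower group. S100a8, a calcium-binding alarm protein, ran from 5.09 to 11.36 (median 6.80) against 4.26 to 8.64 (median 5.19), a difference of 1.62 (1.33 without them). S100a8 is also a product of neutrophils. The list of 8 neutrophil genes, which holds it, had a median of -0.06 with no other member above the limit. That list read low in both groups, with means of 5.08 in the upper and 4.89 in the lower group. Which cells the S100a8 transcripts came from was not tested. Defb3, a defensin, averaged 8.25 ± 1.98 against 6.79 ± 1.70, and Krt16, a keratin made with the Krt6 keratins, 8.65 ± 1.31 against 7.39 ± 0.68 (SD, n = 24 each). Krt17, the other stress keratin of the list, differed by 0.03 and Krt6a by 0.43.

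Other genes of the surface layers or of keratinocytes were among the 10 largest. Car2, a carbonic anhydrase, averaged 8.32 ± 0.82 against 7.19 ± 0.76, and Rptn, repetin of the cornified envelope, 9.53 ± 0.81 against 8.47 ± 0.56 (SD, n = 24 each). Wfdc12, a protease inhibitor, differed by 1.05 (0.84 without the tails that stand apart) and Gsdmc, a gasdermin of epithelia, by 0.96 (0.83 without them). Prg4, lubricin of joints and tendons, differed by 0.98, but by 0.44 without the tails that stand apart and by -0.22 with sex, batch and mouse number in a least squares fit. None of 16 epidermal differentiation genes (median 0.00) and none of 10 basal epidermis genes (median 0.08) was higher or lower. Over all genes the shares were 0.957% and 0.393%, so such a count over short lists can show little. Differences were above 0 for 8 of the 16 and for 9 of the 10. Krt1, the first keratin of cells leaving the basal layer, read 12.63 ± 0.16 against 12.40 ± 0.16 (SD, n = 24 each), and it was high in every tail of both groups.

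The stress and sheath lists were set side by side in each tail. By the mean of each list, 10 upper tails lay above the median of all tails for both lists, 6 for stress only, 4 for the inner root sheath only and 4 for neither. In the lower group the numbers were 2, 5, 5 and 12, and among the 49 tails in between 13, 12, 14 and 10. The mean of the stress list ran from 7.90 to 10.84 in the upper and from 7.44 to 9.43 in the lower group, and that of the sheath list from 7.28 to 9.93 and from 7.04 to 9.76. The tail with the highest 4-gene mean (8.38) was high for both, at 12.07 for Krt6b and 11.23 for Tchh. The 1 upper tail that stands apart read 12.25 for Krt6b and 11.36 for S100a8, but 9.07 for Tchh.

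**Figure D4:**
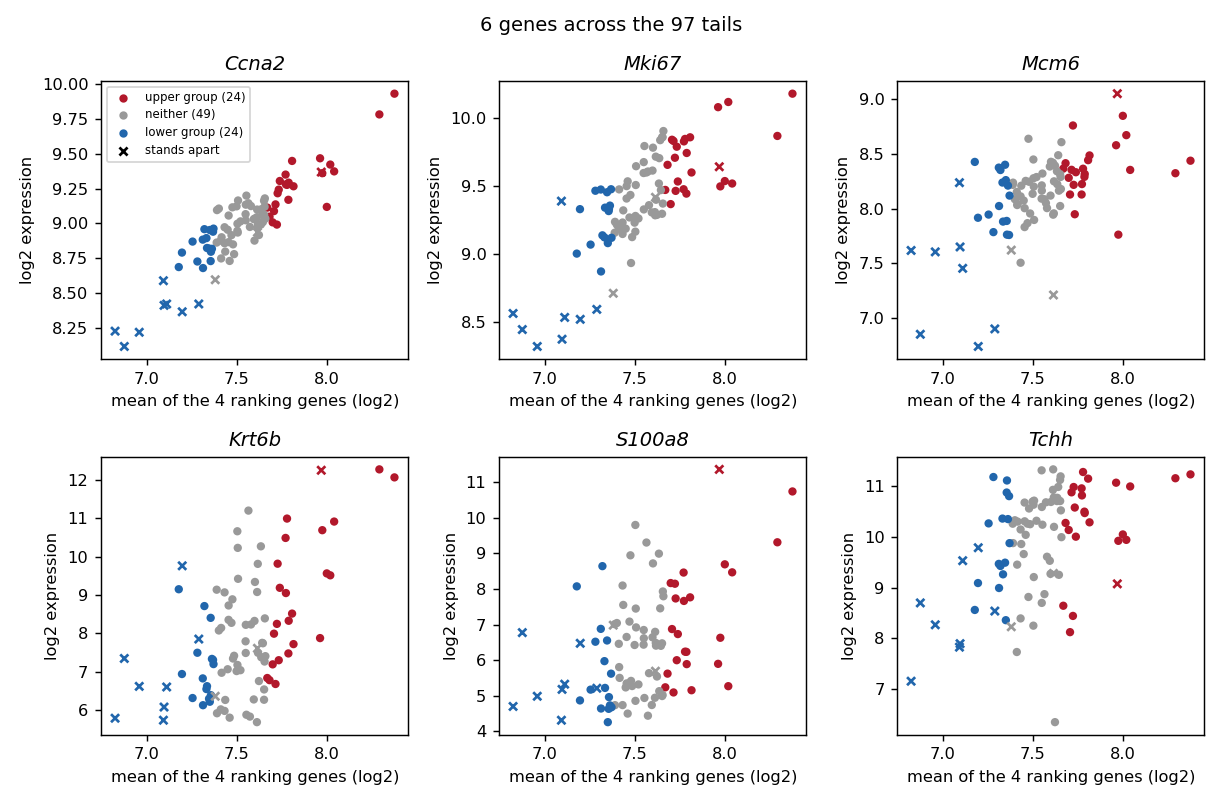
Log2 expression of 6 genes (vertical axes) against the mean of the 4 ranking genes (horizontal axes) in 97 tails, coloured by group, with crosses for tails that stand apart. Ccna2 separates the groups, Mki67 and Mcm6 overlap, and Krt6b, S100a8 and Tchh scatter widely within both groups.

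Genes lower in the upper group were largely genes that read low in skin. Of the 74, 33 were olfactory receptors, and 65 had a lower group mean under 6.49, the median of all gene means. The olfactory receptor family had a median difference of -0.27, which was -0.01 without the tails that stand apart, when none of the 990 was lower. Among genes above that level, Awat2, an acyltransferase that makes wax esters in sebaceous and meibomian glands, ran from 4.92 to 8.36 (median 6.62) in the upper and from 5.24 to 9.23 (median 7.58) in the lower group, a difference of -0.80 (-0.58 without them). Awat2 was the only one of 12 sebaceous gland genes below the limit, and Acsbg1, an acyl-CoA ligase, differed by -0.24. Tmem45a2 differed by -0.64 (-0.70 without them) and the progestin receptor Paqr7 by -0.63 (-0.57 without them). Rimbp2 ran from 4.49 to 8.32 (median 5.43) in the upper and from 4.83 to 8.48 (median 7.87) in the lower group. Its medians lay much further apart than its means, which differed by -0.59 (-0.69 without them). Fosb, an immediate early gene, differed by -0.52 (-0.50 without them), and the other 13 of that list stayed within the limit.

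Some lower genes depended on the tails that stand apart. Mup6, a major urinary protein, differed by -1.14 with all tails and by -0.46 without them. Mir680-2 differed by -0.64 with all tails and by 0.04 without them, and Mir680-1 by -0.50 and 0.17. Scgb1a1, a secretoglobin, differed by -0.51 and by -0.21 without them.

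Other tissues that a tail sample can hold were checked by their markers. Skeletal muscle had 2 of 20 genes higher (Myh1 0.61 and Myl1 0.54, median 0.32). The mean of the muscle list ran from 4.95 to 8.27 in the upper and from 4.99 to 8.16 in the lower group, so some tails of either group read high for muscle genes. Cartilage and tendon had 1 of 14 higher, Chad, a cartilage matrix protein (0.79, and 0.47 without the tails that stand apart). With sex, batch and mouse number in a least squares fit, Chad was at -0.30 and Myl1 at -0.05. White adipocyte genes had a median of -0.10 and none of 13 was higher or lower. None was among 10 T cell, 7 B cell, 14 macrophage and Langerhans cell or 10 mast cell genes. Nor was any among 12 pigment synthesis, 14 interferon response or 12 endothelium genes. At shares over all genes of 0.957% and 0.393%, such counts over short lists show little. The T cell, B cell and interferon response lists also read under 6.49, the median of all gene means, in both groups. Differences were above 0 for 11 of the endothelium genes (median 0.16, and 0.01 without the tails that stand apart). They were above 0 for 4 of the T cell and 2 of the B cell genes. The part of muscle or tendon in the other differences was not tested.

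Mitotic differences were of unequal size in the sexes. In females the mean of the 4 genes differed by 0.74 between the groups and the 74 mitotic genes by a median of 0.67 (13 and 13 tails). In males these were 0.50 and 0.40 (11 and 11 tails). Without the tails that stand apart, the medians of the 74 genes were 0.49 in females (12 and 7 tails) and 0.34 in males (11 and 9 tails), with 4-gene differences of 0.59 and 0.48. Whether the sexes differ was not tested, since the ranking itself sets these sizes.

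The 49 tails in between were not part of the contrast, but their place was set by the same 4-gene mean, so their values are a description too. The slope of each gene on the 4-gene mean, which spanned 7.38 to 7.66 in these tails, was taken from a limma fit with sex and batch as covariates. Gene and mean were read on the same arrays, so effects of an array are shared by both. Cdk1 had a slope of 0.93 per unit of the 4-gene mean (SE 0.15), Ncapg, a condensin subunit, 1.08 (SE 0.21), Kif15, a spindle kinesin, 1.01 (SE 0.21) and Mki67 1.66 (SE 0.34).

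By list, slopes above 0 were found for 11 of 11 mitotic kinases (median slope 0.77), 16 of 17 kinetochore genes (0.48), 20 of 20 spindle motors and cytokinesis genes (0.71), 12 of 14 mitotic cyclins and their regulators (0.57) and 12 of 12 chromosome packaging genes (0.49). The median slope was 0.31 for replication, with 28 of 31 above 0, and 0.51 for repair, with 12 of 13. It was 0.18 for entry into S phase and -0.18 for cell cycle inhibitors. All 11 inner root sheath genes and all 8 hair shaft keratins had slopes above 0, with medians of 2.76 and 3.05. These slopes had wide errors: Tchh was at 2.76 (SE 1.64) and Krt86 at 3.33 (SE 2.14). Keratinocyte stress genes had a median slope of -0.26, with 7 of 14 above 0. All 20 skeletal muscle genes had slopes above 0, with a median of 1.31. The genes of a list were read on the same tails, so its members are not separate observations of a slope. The median slope over all genes was 0.00.

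In dorsal skin of the same mice, which the ranking did not use, a test across all genes called 1 gene. Non-anagen dorsal arrays existed for 21 mice of each group, and a limma fit with sex and batch called 1 of 18820 genes higher (0.00531%) and none lower in mice with upper tails. At an unadjusted limma p under 0.05 there were 2674 of the 18820 genes, 1039 higher and 1635 lower, which is a share above 0.05. The gene called was Anxa3, an annexin, which ran from 6.24 to 7.72 (median 6.51) in dorsal skin of the upper and from 5.12 to 6.81 (median 5.92) in that of the lower group mice. The groups overlapped, and the fitted difference was 0.80 (SE 0.13, adjusted p = 0.00434). Anxa3 was no longer called without the mice whose tails stand apart, all 7 of them from the lower group, or with the upper and lower 32 tails in place of 24. With mouse number as a further covariate its difference was 0.65 (limma adjusted p = 0.469), and that fit called no gene, with 663 genes higher and 677 lower at an unadjusted p under 0.05. In the tails Anxa3 differed by 0.39 between the groups and by 0.14 without the tails that stand apart.

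None of the 4 ranking genes passed the test in dorsal skin. Bub1 averaged 5.95 ± 0.40 in mice with upper and 5.61 ± 0.38 in mice with lower tails (SD, n = 21 each; fitted difference 0.33, SE 0.12, limma p = 0.0102, adjusted p = 0.238), with medians of 5.91 and 5.59. With mouse number as a covariate the Bub1 difference was 0.26 (limma p = 0.0759, adjusted p = 0.719). Kif11 averaged 7.12 ± 0.41 and 6.89 ± 0.38 (0.19, SE 0.13, limma p = 0.136, adjusted p = 0.492), and Birc5 5.24 ± 0.34 and 5.12 ± 0.28 (0.13, SE 0.10, limma p = 0.184, adjusted p = 0.547). Aurkb averaged 7.11 ± 0.52 and 7.09 ± 0.43 (-0.02, SE 0.15, limma p = 0.886, adjusted p = 0.965). The fit called no member of the cell cycle, hair or stress lists in dorsal skin. At an unadjusted limma p under 0.05, the lists with the most genes had 5 each. These were 5 of 12 follicle stem cell and 5 of 10 basal epidermis genes, all lower, and 5 of 12 endothelium genes, all higher. Over all 18820 genes, 1635 were lower and 1039 higher at that limit. With mouse number as a covariate these were 677 and 663, and the lists were not counted in that fit. The lists named here were picked for their counts, and the genes of a list were read on the same arrays.

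**Figure D5:**
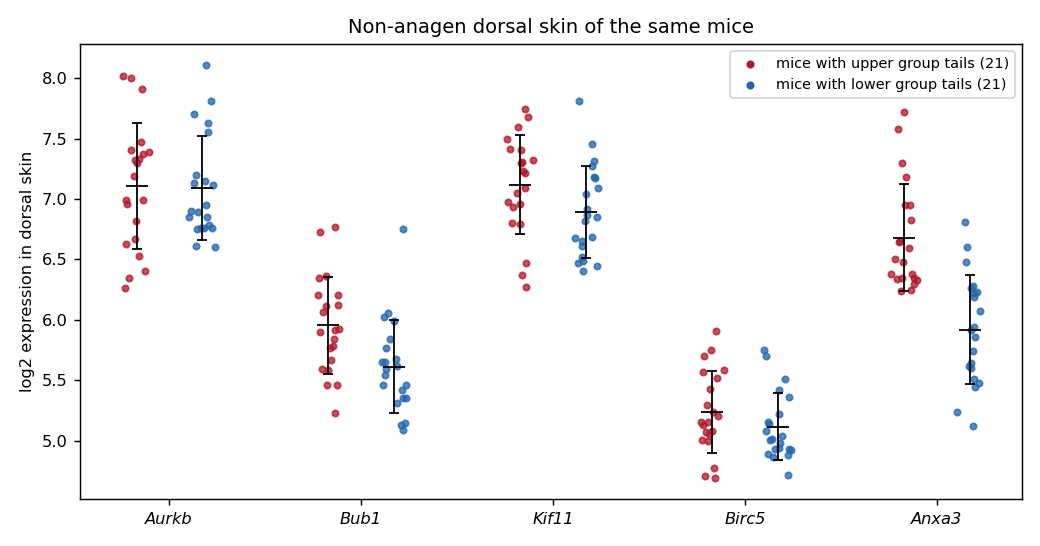
Log2 expression of the 4 ranking genes and Anxa3 in non-anagen dorsal skin of the 21 mice with upper tails (red) and the 21 with lower tails (blue); bars are mean and SD. The groups overlap for all 5 genes, with medians of 5.91 against 5.59 for Bub1 and 6.51 against 5.92 for Anxa3.

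Across all 82 mice with a tail array and a non-anagen dorsal array, the level of a ranking gene in the tail was set against its level in dorsal skin (4 relations, permutation tests with 100000 resamples, two-sided). Bub1 correlated with r = 0.291 (p = 0.00801, adjusted p = 0.032) and rho = 0.312 (p = 0.00422, adjusted p = 0.0169), and r was 0.281 without the 2 mice farthest from the median tail level. Within the 72 mice of dorsal batch 1 and tail batch 4 it was 0.293 (permutation adjusted p = 0.0502), and 0.28 in the 73 mice whose tails do not stand apart (permutation adjusted p = 0.0642). After mouse number was regressed out of both levels it was 0.29 (permutation adjusted p = 0.0331). Kif11 gave r = 0.195 (p = 0.0786, adjusted p = 0.157) and rho = 0.243 (p = 0.0275, adjusted p = 0.0549) by permutation, and r = 0.318 without the 2 farthest mice, so its size turned on those mice. Within the same batches r was 0.168 for Kif11. Birc5 gave r = 0.138 (p = 0.218, adjusted p = 0.291) and rho = 0.134 (p = 0.227, adjusted p = 0.303), and Aurkb r = 0.0827 (p = 0.46, adjusted p = 0.46) and rho = 0.0517 (p = 0.644, adjusted p = 0.644), all by permutation. Without the 2 farthest mice r was 0.138 for Birc5 and -0.055 for Aurkb, and within the batches 0.121 and 0.0293.

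Beside mouse number, sex, hair cycle label and tail batch were each compared between the groups, and none of these 3 tests passed the threshold. Females were 13 of 24 in both groups (Fisher's exact test, two-sided, p = 1.0). The dorsal skin carried the label anagen, which means growing hair, in 2 of 23 mice of the upper and 3 of 24 mice of the lower group (exact p = 1.0). Tail batch 3 held 0 of 24 upper and 2 of 24 lower tails (exact p = 0.489), and each adjusted p over the 3 tests was 1.0. Batch 3 held 2 of these 48 tails, so its test can show little. The batch of the dorsal arrays was uneven and was not tested. Among the non-anagen dorsal arrays, batch 2 held 2 females and 4 males of the lower group and 1 male of the upper. The dorsal fit had batch as a covariate.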

How the data were processed

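RNA was labelled from 1 ug of total RNA per array, per the labels' protocols. The deposited log2 values come from RMA, which subtracts background, equalizes the arrays' distributions and combines probes, per the submitters' processing notes; no version or later adjustment is stated there, and the number of arrays limits the precision. No depth applies to arrays. Of 35556 probe sets, 21218 named 1 gene in the platform annotation, 1881 several and 12457 none; the probe set of highest mean per gene left 18820 genes. No filter was applied.

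Tails were ranked and groups described by mean, SD and difference. Dorsal arrays and the tails in between were fitted by limma 3.58.1 under R 4.3.3 with lmFit, then eBayes (sex and batch as covariates, Benjamini-Hochberg over all genes). Python 3.11.15 with scipy 1.17.1 ran the exact and permutation tests. On simulated data the dorsal fit recovered 83% of genes changed by 0.5 and 98% of those changed by 1.0, with 10 false calls among 18820 genes. The slope fit over the middle tails recovered 36% at a slope of 1.0 and 84% at 2.0, with 6 false calls among 18816. Each simulated gene varied independently of the others, and effects shared by the genes of an array were not simulated. These rates therefore need not hold for the measured arrays. Slopes over the middle tails use the score that ranked them and are described without a test.

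The members, gene lists and settings were chosen with earlier results of these data known, and the tails that stand apart and the use of mouse number were chosen after seeing the data. Named genes were the 4 ranking genes, per list the 3 genes furthest from a tail difference of 0, the 10 largest tail differences in each direction of annotated genes above the median level (6.49) in the higher group, called genes of the 2 fits, and a few fixed genes; other members of lists are named at the low end of a list or where a count is small. Where nothing states separate litters, p-values measure the spread between these mice. Alternatives tried were the batch, covariates, array shift, quantile normalization, probe set choice, 32 tails a side, each ranking gene left out, the size limit, a filter on level, array weights, mouse number and the tails that stand apart.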

Additional observations from a re-analysis of the deposited data

How the results depend on the processing

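The count of genes higher in upper tails (180) was 109 with the probe set of largest SD, 279 when ranking without Aurkb, 98 without the tails that stand apart (ranks kept) and 9 at a limit of 1. The count lower (74) was 160 within batch 4, 119 adjusted for sex and batch, 46 with mouse number added to these, 36 with arrays shifted to one median, 15 after quantile normalization of the tails, 36 with 32 tails a side, 122 when ranking without Birc5, 8 and 17 without the tails that stand apart (ranks kept and ranked again), 1 at a limit of 1 and 8 among genes above the median level.

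In dorsal skin the count higher (1) was 2 with anagen arrays added, with arrays shifted and as a slope over all mice, and 0 with 32 tails a side, above the median level, with mouse number as a covariate and without mice whose tails stand apart; the count lower (0) was 2 with anagen arrays added. Slopes over the middle tails rest on the score that ranked them, so their counts at an adjusted p under 0.05 support nothing. The count with a slope above 0 (1) was 7 without covariates, 0 with arrays shifted, 2 without the 2 tails farthest from the median, 4 above the median level and 7 with array weights, when 1 was below 0. Over all 97 tails, which include those chosen by the ranking, 4972 were above and 3913 below 0. The Bub1 correlation was 0.293 within batches and 0.28 without tails that stand apart, with an adjusted p above 0.05 in both.

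Of 1924 settings of the 148 named genes, 1915 moved by less than the larger SD between the tails of a group, which does not mean that they stayed past the limit of 0.5: of the 55 named genes past it, 24 fell under it without the tails that stand apart (ranks kept). In 2 settings a gene moved by more, and in 7 a gene reversed: without the tails that stand apart, Mir680-1 was at 0.17 with ranks kept and 0.24 ranked again, and Mir680-2 at 0.039 and 0.081; with mouse number added to sex and batch, Chad was at -0.30, Myl1 at -0.0495 and Prg4 at -0.22. The cause was not tested. No paired analysis was possible because each mouse gave 1 tail and lies in 1 group. Background correction of the scanner values was not run.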
